A study of Mus musculus with 6 samples.

Results

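10 genes that encode brakes on mTORC1 signalling were followed in fasted mouse liver: Ddit4, Sesn1, Sesn2, Sesn3, Tsc1, Tsc2, Deptor, Eif4ebp1, Eif4ebp2 and Eif4ebp3. They are 10 of the 12366 genes in the deposited table, matched by symbol, and all 10 were found. The members were chosen by symbol, as known inhibitors of the pathway, with the fold changes of this same comparison already in view. Their differences between the genotypes are therefore given as a description, with no p-value for single members. The 3 WT libraries came from wild type C57BL/6 males and the 3 Acss2-KO libraries from males of the same strain and the genotype Acss2-/-, which lack the acetyl-CoA synthetase gene Acss2; the labels name no driver that would restrict the deletion to a tissue. All mice were 22 weeks old, were kept on chow and had gone without food for 48 h before the liver was taken. No fed group was analysed here, so each value describes the fasted state. The labels do not say whether each library is a separate animal.

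mTORC1 is the protein kinase complex that couples amino acids, insulin and energy to protein synthesis, and it is held back in the fasted liver. Its activator is the small GTPase Rheb, which the TSC complex of Tsc1 and Tsc2 switches off; Ddit4 (also called REDD1) acts through that complex. Sestrins restrain the lysosomal branch that signals amino acid supply, with Sesn2 known as a leucine sensor, and Deptor binds mTOR itself. The 4E-BPs sit at the output end: when mTORC1 is quiet they bind the cap-binding protein eIF4E and slow translation initiation. Much of the control of these proteins is by phosphorylation and turnover, which RNA does not show.

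The stretches just before the start sites of Ddit4, Sesn1 and Sesn2 are shown because these 3 members had the widest ranges over the Acss2-KO libraries, a choice made after their values were seen. Each runs 5′ to 3′ on the gene's own strand and ends at the base before the annotated start (RefSeq, GRCm38.p6). Capitals mark the letters ACGTG, a form of the core of the hypoxia response element. Other forms of that core were neither searched nor marked.

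Ddit4: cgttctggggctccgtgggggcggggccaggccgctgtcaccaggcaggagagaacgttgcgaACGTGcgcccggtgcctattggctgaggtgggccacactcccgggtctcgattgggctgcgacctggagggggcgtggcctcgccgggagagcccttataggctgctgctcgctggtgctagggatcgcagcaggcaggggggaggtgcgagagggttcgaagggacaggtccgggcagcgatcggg

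Sesn1: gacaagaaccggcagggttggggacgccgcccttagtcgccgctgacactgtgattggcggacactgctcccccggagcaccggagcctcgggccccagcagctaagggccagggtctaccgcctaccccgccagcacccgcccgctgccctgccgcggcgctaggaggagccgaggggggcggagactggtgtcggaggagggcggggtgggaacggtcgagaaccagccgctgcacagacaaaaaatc

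Sesn2: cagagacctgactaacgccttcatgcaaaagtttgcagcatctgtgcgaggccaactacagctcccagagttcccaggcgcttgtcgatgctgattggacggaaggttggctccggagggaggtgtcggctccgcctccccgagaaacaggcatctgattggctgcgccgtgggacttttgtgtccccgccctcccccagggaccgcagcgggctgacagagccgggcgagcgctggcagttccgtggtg

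These lie at chr10:59951771-59952020 on the minus strand, chr10:41810324-41810573 on the plus strand and chr4:132510457-132510706 on the minus strand, in that order. RefSeq start windows of 300 bases (250 before the start and 50 from it on) were used for 7 members, with a pair of starts for Sesn1, which makes 8 windows. Windows on chromosome 18, which holds Eif4ebp3, were left out of the search of members, and none was used for Eif4ebp1 or Deptor. Both strands were searched for 6 short motifs. ACGTG, which also lies inside the E-box CACGTG, was found in the window of Ddit4, 187 bases before the start, and in that of Eif4ebp2, 182 bases before the start; 19.6% of all 32851 windows hold it. GTAAACA, a FoxO motif, was found in the window of the upstream Sesn1 start, 22 bases after the start, and in 3.65% of all windows. CACGTG (7.15% of all windows), the glucocorticoid receptor half-site AGAACA (19%) and the ATF4 composite sites TGATGCAA (0.89%) and TGATGAAA (1.02%) were found in none of the 8. GC content was 69.0% in the Ddit4 window, 66.7% in that of the upstream Sesn1 start and 64.7% in that of Sesn2, against a median of 52.7% over all windows. A match or its absence in these few bases is a description only.

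The libraries held about 21.8 to 30.8 Mreads (mega-reads), estimated from the steps between low values, on which 95% to 100% of those values lay. Levels are in CPM, reads scaled to the depth of each library. Acss2 itself stood between 73.5 and 81.0 CPM in WT and between 1.37 and 3.56 CPM in Acss2-KO, as the labels say. Hepatocyte markers were high throughout (5 of 6 in the table, summed 77037 to 100113 CPM in WT and 89711 to 99135 CPM in Acss2-KO). Kupffer cell and macrophage markers (10 of 10 in the table) summed to 191 to 550 CPM in WT, highest in WT replicate 2, and to 133 to 192 CPM in Acss2-KO. Sinusoidal endothelial markers summed to 268 to 408 and 276 to 380 CPM, and stellate cell markers to 243 to 394 and 210 to 359 CPM. Erythrocyte markers summed to 162 to 280 CPM in WT and 41.2 to 67.0 CPM in Acss2-KO, cholangiocyte markers (2 of 5 in the table) to 32.2 to 37.3 and 14.0 to 17.3 CPM, and leukocyte markers (3 of 8) to 6.11 to 19.4 and 2.81 to 5.13 CPM. Of the 5 adipocyte and muscle markers 3 were in the table, all from muscle, and they summed to 0 to 2.62 CPM in WT but to 241 CPM in Acss2-KO replicate 1, where Acta1 was at 199.5 and Ckm at 41.9 CPM; in the other Acss2-KO libraries the sums were 0 and 7.12 CPM. The same library held transcripts of keratinized epithelium: 6 such genes, listed after their values were seen (Krt13, Krt4, Lor, Asprv1, Sprr3 and Krtdap), summed to 204.5 CPM there, to 0 and 3.85 CPM in the other Acss2-KO libraries and to 0 in each WT library. In these bulk samples fewer cells of a type and less RNA per cell cannot be told apart. The part of any of these cell types in the results was not tested.

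Of the 10 members, 9 reached a mean of 5 CPM over the 6 libraries and entered the limma fit over 9355 genes; Sesn3, at 4.97 CPM, lay just under it, and Eif4ebp3 passed only through Acss2-KO. In that fit 5 of the 9 were past an adjusted p of 0.05, against 36.5% of all genes tested: Ddit4, Sesn1, Eif4ebp1 and Eif4ebp3 were higher in Acss2-KO (13.4% of all genes were called higher) and Deptor was lower (23.1% of all were called lower). The groups did not overlap for the same 5 members, against 52.9% of all genes tested. Since the members were picked with this contrast known, nothing is read from these counts. For the same reason, whether a member was past the threshold, here or with libraries left out, is description and no support. The median log2 fold change was 1.10 over the 9 members and -0.12 over all tested genes; scaling the libraries to each other moved the latter to between -0.04 and 0.02 and left the same counts of members called. With such scaling 47.2% to 52.5% of all calls were higher in Acss2-KO, against 36.7% on CPM.

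**Figure D1:**
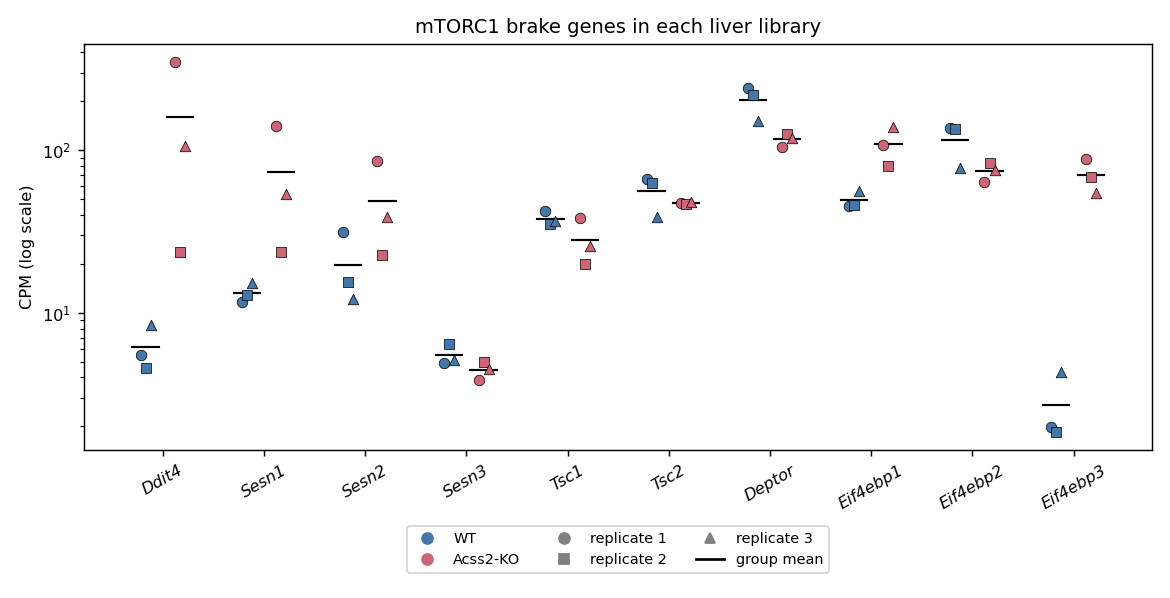
Level of each of the 10 genes in each library, in CPM on a log axis; blue is WT, red is Acss2-KO, the marker shape gives the replicate number and the black bar the group mean. Ddit4, Sesn1, Eif4ebp1 and Eif4ebp3 are higher in every Acss2-KO library than in any WT library, Deptor is lower, and the other 5 overlap.

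Ddit4, the stress-induced activator of the TSC complex (ENSMUSG00000020108, chromosome 10, 59949675 to 59951770), was at 5.46, 4.56 and 8.40 CPM in WT replicates 1 to 3. In Acss2-KO replicates 1 to 3 it was at 347, 23.6 and 107 CPM. All 3 Acss2-KO libraries thus lay above all WT libraries, by 56.5, 3.84 and 17.4 times the WT mean, and differed among themselves by 14.7 times. The log2 fold change on the log2(CPM + 1) scale, which understates changes of low genes, was 3.81 (SE 1.03), a 14.0-fold difference, with group means of 6.14 ± 2.01 CPM (SD, n = 3) and 159 ± 168 CPM (SD, n = 3). The range over the Acss2-KO libraries was wider on the log scale than that of 99.3% of the tested genes. Acss2-KO replicate 1, the highest, is the library with the muscle and keratinized epithelium transcripts. Without it the log2 fold change was 2.89 (SE 0.66), past the threshold. Ddit4 was no longer past it without WT replicate 1 (log2 fold change 3.75, SE 1.35), WT replicate 2 (3.64, SE 1.35) or Acss2-KO replicate 3 (3.73, SE 1.3), nor with a pseudocount of 5 (3.24, SE 0.99). With WT replicate 2 and that library both left out it was 2.72 (SE 1.04), not past the threshold.

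Sesn1, a sestrin known as a p53 and FoxO target (ENSMUSG00000038332, chromosome 10, 41810574 to 41908424), followed the same order. It was at 11.7, 12.8 and 15.2 CPM in WT replicates 1 to 3 and at 142, 23.8 and 53.8 CPM in Acss2-KO replicates 1 to 3. The WT libraries lay within 1.3 times of each other and every Acss2-KO library was above them, but Acss2-KO replicate 2 by only 1.79 times the WT mean. The log2 fold change was 2.03 (SE 0.61), or 4.08-fold, from 13.3 ± 1.81 to 73.2 ± 61.5 CPM (SD, n = 3 each). Without Acss2-KO replicate 1 it was 1.38, and leaving out replicate 2 of that group gave 2.64, both past the threshold. Sesn1 was not past the threshold without WT replicate 1 (1.95, SE 0.79), WT replicate 2 (2.01, SE 0.80), WT replicate 3 (2.13, SE 0.70) or Acss2-KO replicate 3 (2.07, SE 0.75), nor with a pseudocount of 5 (1.79, SE 0.57).

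Sesn2, the leucine-sensing sestrin and an ATF4 target (ENSMUSG00000028893, chromosome 4, 132492032 to 132510501), was at 31.3, 15.5 and 12.2 CPM in WT and at 85.6, 22.8 and 38.9 CPM in Acss2-KO. The groups overlapped, since Acss2-KO replicate 2 lay below WT replicate 1. The fitted difference was 1.18 (SE 0.53) on the log2 scale, not past the threshold, and it was 0.69 without Acss2-KO replicate 1. Leaving out replicate 2 of that group gave 1.62 (SE 0.48), past the threshold. Sesn3, the low-level sestrin of this liver (ENSMUSG00000032009, chromosome 9, 14275067 to 14333101), was at 4.92, 6.45 and 5.10 CPM in WT and at 3.84, 4.96 and 4.53 CPM in Acss2-KO, on about 99 to 198 reads per library. Its groups overlapped and its mean fell under the minimum of the fit, so it has no fitted change.

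Ddit4, Sesn1 and Sesn2 were each highest in Acss2-KO replicate 1, next in replicate 3 and lowest in replicate 2. Tsc1 had that order too, and 27.0% of all tested genes, and 58.9% of those called higher in Acss2-KO. Sesn1 and Sesn2 had wider ranges over the Acss2-KO libraries than 98.5% and 97.3% of the tested genes. The leading principal component over all tested genes, with 71.5% of the variance, placed the Acss2-KO libraries in the same order, at 62.4 for replicate 1, 44.0 for replicate 3 and 16.9 for replicate 2, with the WT libraries between -45.6 and -38.0. Ddit4, Sesn1 and Sesn2 were thus highest in the library that stood farthest from WT over all genes and lowest in the nearest. What set that order was not tested.

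Neither subunit gene of the TSC complex, through which Ddit4 acts, passed the test. Tsc1, the stabilising subunit (ENSMUSG00000026812, chromosome 2, 28641228 to 28691167), was at 42.2, 35 and 36.8 CPM in WT and at 38.3, 19.97 and 25.6 CPM in Acss2-KO. Only Acss2-KO replicate 1 lay within the WT range, and the log2 fold change was -0.47 (SE 0.23), not past the threshold; it was -0.72 (SE 0.19) and past it without Acss2-KO replicate 1. Tsc2, the subunit that acts on Rheb (ENSMUSG00000002496, chromosome 17, 24595937 to 24632629), was at 66.7, 63.1 and 38.6 CPM in WT and at 47.5, 46.9 and 48.2 CPM in Acss2-KO. The Acss2-KO libraries lay within 1.03 times of each other, between the high and the low WT libraries, with a log2 fold change of -0.20 (SE 0.22). Without WT replicate 3 it was -0.44 (SE 0.12) and past the threshold. The Tsc2 gene overlaps the end of Pkd1 on the other strand by 578 bases, so reads there cannot be assigned without strand. In GENCODE vM1, Sesn2 also overlaps Gm12981 on the same strand by 6089 bases. Deptor overlaps Gm9920 on the other strand by 1361 bases. Gm12981 and Gm9920 are not in the deposited table.

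Deptor, the inhibitor that binds mTOR directly (ENSMUSG00000022419, chromosome 15, 55112317 to 55259271), went the other way. It was at 241, 218 and 152 CPM in WT and at 105, 126 and 119 CPM in Acss2-KO, so that every Acss2-KO library was below every WT library. The log2 fold change was -0.78 (SE 0.21), 1.71-fold lower, from 204 ± 45.9 to 117 ± 10.5 CPM (SD, n = 3 each). It was not past the threshold without WT replicate 1 (-0.64, SE 0.25), WT replicate 2 (-0.71, SE 0.26), Acss2-KO replicate 1 (-0.70, SE 0.24) or Acss2-KO replicate 3 (-0.79, SE 0.27). WT replicate 3, the lowest WT library for Deptor, was also the lowest for Sesn2, Tsc2 and Eif4ebp2; it was the lowest WT library for 51.1% of all tested genes.

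Eif4ebp3, the third 4E-BP (ENSMUSG00000090264, chromosome 18, 36664060 to 36665917), showed the largest fitted difference of the members. It was at 1.97, 1.85 and 4.32 CPM in WT replicates 1 to 3, about 57 to 101 reads, and at 88.6, 68.1 and 54.6 CPM in Acss2-KO replicates 1 to 3. Each Acss2-KO library stood at least 20.1 times above the WT mean, and the 3 lay within 1.63 times of each other. In the fit the log2 difference was 4.30 (SE 0.28), or 19.7-fold, from 2.71 ± 1.39 to 70.4 ± 17.2 CPM (SD, n = 3 each). Its value moved with the pseudocount, from 3.28 with a pseudocount of 5 to 4.78 without one. Since WT was under the minimum of the fit and Acss2-KO carried the gene over it, the fitted value is a description of these libraries only. In GENCODE vM1 the whole Eif4ebp3 gene, 1858 bases, lies within Ankhd1 on the same strand, through transcripts that run on from Ankhd1. Ankhd1 was at 59.7, 52.0 and 44.0 CPM in WT and at 23.3, 37 and 26.2 CPM in Acss2-KO, the direction opposite to Eif4ebp3. No source used here says how reads shared by both genes were assigned.

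Eif4ebp1, the 4E-BP induced by ATF4 (ENSMUSG00000031490, chromosome 8, 27260327 to 27275656), was at 45.6, 45.9 and 56.5 CPM in WT and at 108, 79.9 and 138 CPM in Acss2-KO. No libraries of the groups overlapped, and replicate 3 rather than replicate 1 was the highest of the Acss2-KO libraries. The log2 fold change was 1.10 (SE 0.22), or 2.14-fold, from 49.3 ± 6.22 to 109 ± 29.1 CPM (SD, n = 3 each), and it lay between 0.91 and 1.3 over the 18 alternatives. Eif4ebp2 (ENSMUSG00000020091, chromosome 10, 61432497 to 61452669), the member best known from brain, was at 136, 134 and 77.7 CPM in WT and at 64.0, 83.9 and 75.6 CPM in Acss2-KO. Its groups overlapped through WT replicate 3. Its fitted difference of -0.60 (SE 0.24) was not past the threshold, and was -0.86 (SE 0.16) and past it without WT replicate 3.

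**Figure D2:**
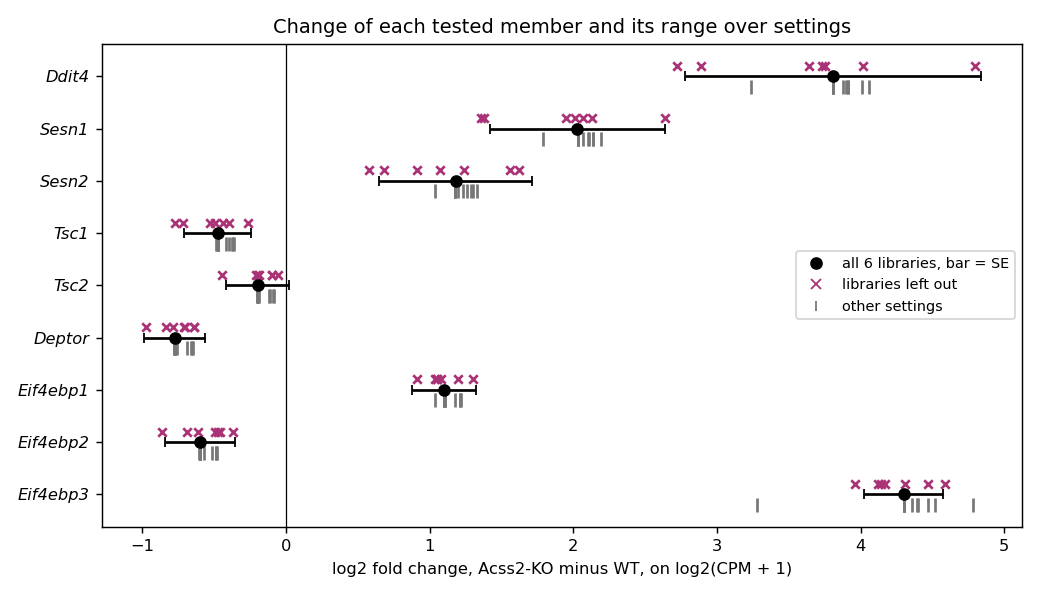
Log2 fold change, Acss2-KO minus WT, of the 9 tested genes on the log2(CPM + 1) scale; black points are the fit to all 6 libraries with the SE as bar, crosses are fits with libraries left out and grey ticks the other settings. Ddit4 spreads from 2.72 to 4.80 when libraries are left out, whereas Eif4ebp3 lies between 3.96 and 4.59 in those fits.

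Ratios between members within a library do not depend on library scaling. Eif4ebp3 over Eif4ebp2 stood at -5.49 ± 1.14 (mean log2 ratio of CPM ± SD, n = 3) in WT and at -0.10 ± 0.50 in Acss2-KO, a shift of 5.39. Eif4ebp1 over Eif4ebp2 moved from -1.20 ± 0.64 to 0.52 ± 0.51, and the lowest Acss2-KO ratio, -0.07, lay above the highest WT ratio, -0.46. Against Eif4e, the transcript of their shared binding partner, the log2 ratio moved from 0.29 ± 0.02 to 1.3 ± 0.38 for Eif4ebp1 and from -4.00 ± 0.49 to 0.68 ± 0.56 for Eif4ebp3. For Eif4ebp2 over Eif4e it went from 1.49 ± 0.66 to 0.78 ± 0.16, with overlap.

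Levels were compared between genes per kb of exon, with exon lengths from GENCODE vM1, which may differ from the authors' gene models. In WT, Eif4ebp2 (65.0 ± 18.6 CPM per kb) and Eif4ebp1 (50.3 ± 6.34) were the most abundant and did not differ beyond their spread. Deptor followed at 23 ± 5.18 and Tsc2 at 8.85 ± 2.41 CPM per kb. The other 6 lay between 2.54 and 5.66 CPM per kb, in the order Sesn2, Sesn1, Eif4ebp3, Ddit4, Tsc1 and Sesn3. Eif4ebp3 and Ddit4 were at 3.65 and 3.64 CPM per kb. Neighbours in this order overlapped in their ranges over the WT libraries, so the order between neighbours is not resolved. In Acss2-KO the order began with Eif4ebp1 (111 ± 29.7 CPM per kb), Eif4ebp3 (94.7 ± 23.1) and Ddit4 (94.5 ± 99.8), which did not differ beyond their spread, and then Eif4ebp2 at 41.7 ± 5.59. Sesn1 (22.0 ± 18.5), Sesn2 (14.1 ± 9.40) and Deptor (13.2 ± 1.19 CPM per kb) followed and did not differ beyond their spread, Tsc2 had 7.49 CPM per kb, and Tsc1 (2.36) and Sesn3 (2.05) came last. This order rested on Acss2-KO replicate 1: Ddit4 was at 206 CPM per kb there and at 14.0 and 63.4 in replicates 2 and 3. Without that library, an alternative chosen after seeing the data, Ddit4 had a mean of 38.7 CPM per kb, below Eif4ebp2 at 44.6. Sesn1 (11.7) and Sesn2 (8.87) then lay below Deptor (13.8), and Tsc1 (1.93) below Sesn3 (2.20).

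The 3 4E-BP genes together summed to 125, 125 and 107 CPM per kb in WT replicates 1 to 3 and to 266, 220 and 257 CPM per kb in Acss2-KO. The sum was thus higher in every Acss2-KO library, and its makeup differed: Eif4ebp3 held 2.0% to 5.43% of it in WT and 28.6% to 44.9% in Acss2-KO, while Eif4ebp2 held 40.7% to 60.8% and 13.5% to 21.4%. The share of Eif4ebp1 ran from 37.1% to 53.9% in WT and from 37% to 54.9% in Acss2-KO. The 3 sestrin genes summed to 14.8, 11.3 and 10.5 CPM per kb in WT and to 69.1, 16.0 and 29.5 CPM per kb in Acss2-KO, the lowest of which was close to the highest WT value. Sesn3 held 15.4% to 26.5% of the sestrin sum in WT and 2.57% to 14.3% in Acss2-KO.

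**Figure D3:**
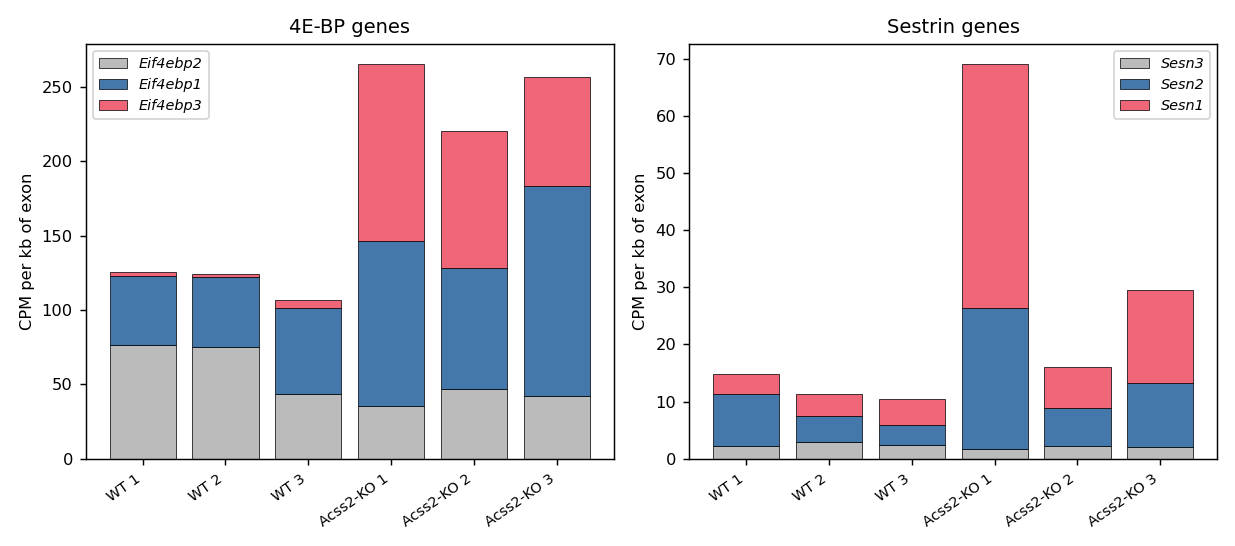
Summed level of the 4E-BP genes (left) and the sestrin genes (right) in each library, in CPM per kb of exon, with each gene's part stacked. The 4E-BP sum is 220 to 266 in the Acss2-KO libraries and 107 to 125 in WT, and the sestrin sum is highest in Acss2-KO replicate 1, at 69.1.

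For each tested member the 3 genes with the most similar course over the 6 libraries were found by the root mean square difference of their log2(CPM + 1) values, each centred on its own mean. Nearest to Ddit4 were the kinase gene Map3k6 (0.21 log2 units, with 107, 10.2 and 36.5 CPM in Acss2-KO replicates 1 to 3), the BMP-binding protein gene Bmper (0.60) and the histone methyltransferase gene Setdb2 (0.62). Bmper is listed at 0 in all WT libraries. Nearest to Sesn1 were the protease gene Adamts15 (0.13), E130012A19Rik (0.14) and the phospholyase gene Etnppl (0.27, 975.5, 153 and 449 CPM in Acss2-KO). Nearest to Sesn2 were Hip1r (0.27), the nuclear envelope gene Sun2 (0.27) and the G protein regulator gene Rgs16 (0.30). For Eif4ebp3 they were the ferritin receptor gene Scara5 (0.39), Gm27252 (0.42) and the metallothionein gene Mt2 (0.53), and for Eif4ebp1 the CTP synthase gene Ctps2 (0.07), Rassf1 (0.08) and Fam199x (0.09). Deptor was nearest to Cstf2t (0.06), Eif4ebp2 to the phosphatase gene Ppm1l (0.04), Tsc1 to 2210018M11Rik (0.07) and Tsc2 to Nucb1 (0.03). Map3k6, Adamts15, E130012A19Rik, Scara5 and Gm27252 were at no more than 2.53 CPM in any WT library. Like Bmper, they passed the minimum of the fit only through Acss2-KO, so their likeness rests mainly on the Acss2-KO libraries. Rassf1, at 3.76 to 4.66 CPM in the WT libraries, likewise passed that minimum only through Acss2-KO.

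Other genes around mTORC1, in 11 lists of 98 genes, moved in both directions. Of the 81 tested, 11 rose and 17 fell in Acss2-KO, 34.6% in all against 36.5% of all genes tested, with a median log2 fold change of -0.03. Mtor, Rptor, Rheb and Rps6kb1 did not pass the test. Mtor was at 90.7 ± 26.4 and 99.4 ± 10.5 CPM (limma adjusted p = 0.60) and Rptor, the mTORC1 scaffold, at 48.8 ± 13.4 and 36.0 ± 4.65 CPM (0.20). Rheb was at 43.3 ± 3.41 and 54.0 ± 6.90 CPM (0.18) and the S6 kinase gene Rps6kb1 at 32.2 ± 4.55 and 27.7 ± 3.71 CPM (0.38). Of the 9 tested complex subunits and assembly factors 1 rose and 1 fell. The mTORC2 subunit gene Rictor rose (log2 fold change 0.77, SE 0.26, limma adjusted p = 0.046). Tti1, an assembly factor for mTOR and related kinases, fell (log2 fold change -1.04, SE 0.23, adjusted p = 0.0094). Mlst8, described at the end, was under the minimum level and not tested. Neither of the 2 tested genes beside Tsc1 and Tsc2, Rheb and the third TSC subunit gene Tbc1d7, passed.

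On the amino acid branch, of 8 tested genes of GATOR1 (the complex that switches off the Rag GTPases), its anchor KICSTOR and the sensors, 2 rose and 3 fell. The GATOR1 subunit genes split: Nprl2 fell from 14.1 ± 1.28 to 4.92 ± 2.11 CPM (-1.43, SE 0.28, adjusted p = 0.0059) and Nprl3 rose from 16.1 ± 2.50 to 29.8 ± 5.34 CPM (0.84, SE 0.19, 0.011). In GATOR2, the complex that sestrins bind, 1 of 5 rose and 2 fell, with Mios higher (0.89, SE 0.17, 0.0059). Among 10 tested genes of the Rag GTPases, Ragulator and folliculin 4 fell and 1 rose, the list with the lowest median (-0.50). The folliculin gene Flcn fell from 45.2 ± 6.03 to 19.4 ± 4.03 CPM (-1.19, SE 0.19, 0.0030), its partner Fnip2 from 48.1 ± 13 to 12.4 ± 2.41 CPM (-1.85, SE 0.24, 0.0012) and the Ragulator gene Lamtor4 from 44.9 ± 9.34 to 22.2 ± 3.59 CPM.

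Upstream kinases were mixed as well. Of 8 tested genes of AMPK, which restrains mTORC1 when energy is low, and of LKB1, 2 rose and 2 fell. Prkaa1, a catalytic subunit gene, fell from 10.3 ± 0.94 to 3.92 ± 1.00 CPM (-1.22, SE 0.20, adjusted p = 0.0030), while Prkaa2, the other catalytic subunit gene, was at 68.8 ± 8.79 and 98.5 ± 15.7 CPM and did not pass (0.061). Of 6 genes that link Akt and related kinases to TSC 1 fell, Rps6ka1 (-1.53, SE 0.25, 0.0030).

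At the output end, 2 of 8 tested partners of the 4E-BPs rose and none fell. Eif4e did not pass, at 40.3 ± 5.68 and 43.3 ± 6.09 CPM (adjusted p = 0.68). The eIF4G paralog gene Eif4g3 rose from 57.7 ± 14.0 to 105 ± 12.6 CPM (0.87, SE 0.22, 0.015) and the eIF4E transporter gene Eif4enif1 from 23.6 ± 2.46 to 44.7 ± 11.1 CPM (0.87, SE 0.21, 0.013). Of 6 genes of the S6 kinase arm 1 fell, Eef2k, the elongation factor 2 kinase that S6 kinase inhibits, from 8.71 ± 2.40 to 2.05 ± 0.60 CPM (-1.66, SE 0.26, 0.0025). Of 7 tested ULK1 and TFEB genes 1 fell, the autophagy kinase gene Ulk2 (-1.28, SE 0.26, 0.0072).

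Of 12 transcription factors known to act on members, 2 rose and 2 fell. Atf4, which acts on Ddit4, Sesn2 and Eif4ebp1, rose from 89.6 ± 9.0 to 182 ± 39.1 CPM (0.99, SE 0.21, adjusted p = 0.0079), and Foxo1 rose from 41.9 ± 13.8 to 73.1 ± 14.7 CPM (0.83, SE 0.28, 0.045). Trp53, which encodes p53, fell from 17.9 ± 2.03 to 4.27 ± 2.0 CPM (-1.90, SE 0.26, 0.0015), and Foxo4 fell (-0.66, SE 0.16, 0.012).

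Of the 28 pathway genes past the threshold, 13 kept the call in each of the 6 fits that leave out a library, 3 higher and 10 lower: Nprl3, Mios, Atf4, Tti1, Nprl2, Lamtor4, Flcn, Fnip2, Prkaa1, Rps6ka1, Eef2k, Ulk2 and Trp53. Of these 13, Nprl2, Prkaa1, Eef2k and Trp53 averaged under 5 CPM in Acss2-KO and passed the minimum of the fit through WT, where they were higher; Prkab2, among the 28, passed it through Acss2-KO. Calls of these 5 genes are to be read with that limit. Without WT replicate 1 the call was lost for Kptn (limma adjusted p = 0.0581), Prkag2 (0.0595) and Foxo4 (0.0586), and without WT replicate 2 for Itfg2 (0.0535). Without Acss2-KO replicate 3 it was lost for Lamtor2 (0.0505), Prkab2 (0.051), Eif4g3 (0.0686) and Eif4enif1 (0.0551). Wdr59 lost it without WT replicate 1 (0.0531) or 2 (0.0501). Rictor (0.0562 to 0.143), Rraga (0.0611 to 0.15) and Cab39 (0.0521 to 0.117) lost it in each of these fits but that without Acss2-KO replicate 2. Depdc5 (0.0668 to 0.109) and Wdr24 (0.0907 to 0.12) lost it without WT replicate 1 or 2 and without Acss2-KO replicate 1 or 3; Wdr24 lost it also under each of the 4 scalings (0.0536 to 0.0757) and Depdc5 under quantile normalization (0.0847). For Foxo1 these were the fits without WT replicate 2 (0.0515) or 3 (0.0963) and without Acss2-KO replicate 1 (0.115) or 3 (0.144). Nprl3 (0.0545) and Atf4 (0.0521) lost the call in the fit that dropped the WT library richest in macrophage markers together with the Acss2-KO library carrying muscle and epithelial transcripts. So did Rictor, Depdc5, Kptn, Itfg2, Wdr24, Wdr59, Rraga, Lamtor2, Prkag2, Cab39, Foxo1 and Foxo4 (0.0516 to 0.272). Rictor and Foxo1 lost it also with a minimum mean of 20 CPM (0.0518 and 0.0504) and without the trend and robust settings (0.0579 and 0.0554). Rraga (0.0655) and Cab39 (0.0519) lost it with the replicate number as a block.

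**Figure D4:**
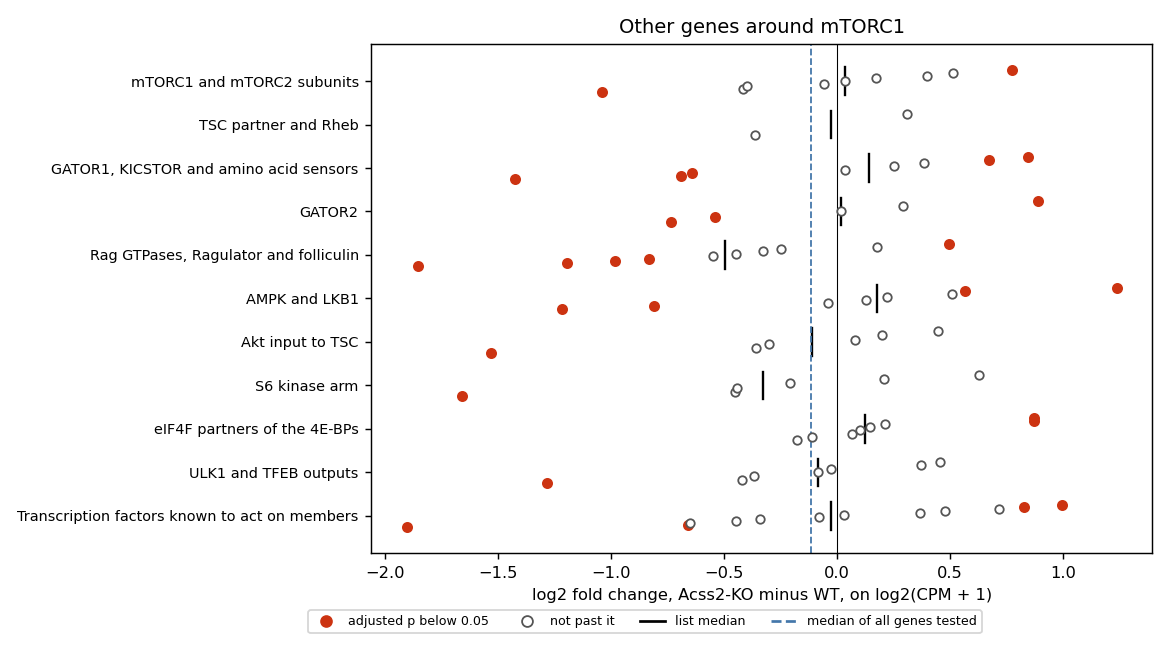
Log2 fold change, Acss2-KO minus WT, of the 81 tested pathway genes by list; red points are past an adjusted p of 0.05, open points are not, black bars are list medians and the dashed line is the median of all genes tested, -0.12. Lists hold points on both sides of 0, and the Rag GTPase, Ragulator and folliculin list has the lowest median, -0.50.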

How the data were processed

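Liver RNA of 3 WT and 3 Acss2-KO libraries was sequenced. The deposited table holds log2 CPM per library, rounded to 2 decimals, and lists values under 1 CPM at 0, as its numbers show; the authors' log2 fold changes and p-values stand beside them. Per the submitters' processing notes Bowtie 0.12.2 and mm8 were used, in roles not given; no source used here gives the annotation, strand setting or the test behind the authors' p-values. Gene starts lay a median of 8 bp from GRCm38.p6, so the deposited coordinates were taken as GRCm38.

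Values were turned into CPM (a listed 0 became 1 CPM). A robust limma model with a mean-variance trend (version 3.58.1, under R 4.3.3) was fitted to log2(CPM + 1) of the genes averaging 5 CPM or more. Benjamini-Hochberg adjustment was over 9355 genes, with a threshold of 0.05. The procedure was also run on simulated data with independent genes, of which a far smaller share changed than the 36.5% called here. That run therefore cannot test the fit under so broad a change. Since the values are not counts, the count-model branch of the design was not used. Members and lists were chosen with earlier results of these data known. The text names the members, the core genes Mtor, Rptor, Rheb, Rps6kb1, Eif4e and Atf4, the listed pathway genes past the threshold (up to 3 of a list by p, or all in the paragraph on left-out libraries), and the 3 genes nearest to each member, of which not all are printed; Prkaa2 and Ankhd1 were added after their values were seen. The alternatives were other pseudocounts, scalings, minimum levels and variance settings, libraries left out and the replicate number as a block. Labels call the libraries replicates without saying that they are separate animals, so p-values measure only the spread between these libraries, which may be technical.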

Additional observations from a re-analysis of the deposited data

How the results depend on the processing

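The sign of each tested member's change was the same in all 18 alternatives, and 139 of 162 member values kept their side of the threshold. Members called higher were 4, and 2 with a pseudocount of 5; over the 6 fits without a library they ran from 2 to 5, and members called lower (1) from 0 to 3. Pathway genes called higher (11) were 17 with median-of-ratios and trimmed-mean scaling, 18 with quantile normalization, and 4 to 17 without a library; those called lower (17) were 11 to 19 without a library. With a minimum mean of 20 CPM, which tests fewer genes, 7 pathway genes were higher and 7 lower, and of all genes 741 and 1112. All genes called higher (1252) ran from 525 to 1616 and lower (2161) from 1192 to 2381 without a library. Without both WT replicate 2, highest in macrophage transcripts, and Acss2-KO replicate 1, highest in muscle and epithelial transcripts, the counts were 702 higher and 1291 lower among all genes and 4 and 10 among pathway genes, with Eif4ebp1, Eif4ebp3 and Sesn1 higher and Tsc1 lower among members. Mtor's log2 fold change (0.17) was -0.0891 without WT replicate 3 and ran up to 0.341 without another library and 0.37 without both named above. With the replicate block 1260 genes were higher and 2137 lower, Ddit4 and Sesn1 were not past the threshold (log2 fold changes 3.81, SE 0.96, and 2.03, SE 0.62), Sesn2 was (1.18, SE 0.23), and so were 9 pathway genes higher and 19 lower. Deviations from the group means correlated at -0.10, -0.14 and 0.09 for WT and Acss2-KO libraries of replicate number 1, 2 and 3. For libraries of unlike number the correlations ran from -0.146 to 0.175. With 3 libraries per group these values cannot tell whether the numbers pair the libraries. The cause of these changes was not tested. Fits without a library or with a higher minimum also held fewer libraries or genes. Counting only bases before the start site, 0 windows held the FoxO motif. Depth limits Sesn3 and, in WT, Eif4ebp3 most.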

Other observations

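In the authors' deposited table Ddit4 and Eif4ebp3 carry the same log2 fold change, 4.85, which lies 0.15 above the log2 ratio of their mean CPM (4.70 for each), as it does over the 10992 genes above the floor in every library (mean 0.153). That ratio of means is 25.9 for Ddit4 and 26 for Eif4ebp3. On the log2(CPM + 1) scale the same genes differ by 14.0-fold and 19.7-fold, with SEs of 1.03 and 0.28 log2 units. Without a pseudocount the mean log2 values differ by 4.01 for Ddit4 and 4.78 for Eif4ebp3. The Acss2-KO libraries ran from 23.6 to 347 CPM for Ddit4 and lay within 1.63 times of each other for Eif4ebp3. For Sesn1 the authors' deposited table gives 2.62, against 2.465 for the log2 ratio of mean CPM. The fit on log2(CPM + 1) gives 2.03 for Sesn1, and the fit without a pseudocount gives 2.1. The calls differ for a pair of members: the authors' deposited table gives Sesn2 an adjusted p of 0.00051 (log2 fold change 1.48), where Sesn2 was not past the threshold here, and Deptor an adjusted p of 0.18 (log2 fold change -0.65), where Deptor was past it.

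Of genes around mTORC1 not described above, the folliculin partner gene Fnip1 was at 50.7 ± 4.97 CPM in WT and 43.0 ± 8.35 CPM in Acss2-KO (SD, n = 3 each; limma adjusted p = 0.32), next to its paralog Fnip2, which fell. Mlst8, which encodes an mTOR-binding subunit, was at 5.90, 5.66 and 4.17 CPM in WT and at 1.92, 1.83 and 1.38 CPM in Acss2-KO, with no overlap, but was under the minimum level and not tested. Fnip1 and Mlst8 were picked after their values were seen.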
